A study of Mus musculus with 6 samples.

Results

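The 35 genes described here are interferon-stimulated genes and genes of antigen presentation, taken by symbol from a list of known interferon and antigen presentation genes, and all 35 were found among the 49997 genes of the count tables. RNA came from photoreceptors of mice that carry the Cas9 nuclease in every cell (Rosa26-Cas9). Both groups received the same kind of adeno-associated virus (AAV) under the retina, with mCherry driven by a human GRK1 promoter to mark photoreceptors, and the groups differ in the guide RNA: 3 libraries have a guide against Nr2e3, a nuclear receptor of rods, and 3 have a non-targeting control guide. Each library is 1 mouse, with about 100000 mCherry-positive cells sorted from its 2 injected retinas 6 months after injection. The labels give the age at injection as postnatal day 21 in one place and 4 weeks in another. Guide replicate 1 and all 3 control animals are male, and guide replicates 2 and 3 are female. Vector, Cas9, injection and sorting are shared by all 6 libraries, and no uninjected eye is part of the comparison, so a response to the vector itself cannot be told apart from the resting level.

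Interferons are secreted proteins that cells release when they sense viral nucleic acid. They bind receptors on neighbouring cells, and kinases and transcription factors then switch on a broad set of genes, many of which hinder viral replication. The same signals raise the machinery that cuts proteins into peptides, loads them onto class I histocompatibility molecules and shows them to T cells, whereas class II molecules belong mainly to professional antigen-presenting cells. Neurons, photoreceptors included, are known for low class I levels at rest. In the retina, microglia and other phagocytes are the usual carriers of class II molecules.

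Depth was 24705561 to 34286248 gene counts per library, so 3 counts correspond to 0.0802 to 0.131 CPM (read counts scaled to a common TMM-normalised library size), a limit that covers counting error only. Nr2e3 RNA itself was not lower with its guide, at 2094, 1906 and 2244 CPM in guide replicates 1 to 3 and 1756, 1572 and 1507 CPM in control replicates 1 to 3 (log2 fold change 0.37, SE 0.13, adjusted p = 0.716 by edgeR). An edited transcript can still be made and counted, so its level does not check the labels, and the groups are named here by the guide they received. Rod markers, 12 in all, summed to 145945 to 186418 CPM. The 10 cone markers summed to 13386 to 17246 CPM in guide libraries and 3806 to 8324 CPM in controls. The cone markers did not move together, and 4 had a positive and 6 a negative log2 fold change (median -0.51). Gnat2 averaged 7612 CPM in guide libraries against 772 CPM in controls, whereas Opn1sw averaged 1064 against 1890 CPM.

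Control replicate 3 stood apart from the other controls in markers of other cell types. In control replicate 3, the 18 microglia and macrophage markers summed to 404 CPM, against 45.0 and 46.0 CPM in control replicates 1 and 2, and 18 of the 18 lay above both other controls. Guide replicates 1, 2 and 3 had 49.4, 219 and 151 CPM. The same control library was below both other controls in its sums of amacrine cell markers (132 against 296 and 336 CPM), pigment epithelium markers (5.18 against 20.3 and 20.5 CPM), endothelium and pericyte markers (7.91 against 23.6 and 21.4 CPM), bipolar cell markers (146 against 256 and 231 CPM) and cone markers (3806 against 7874 and 8324 CPM). Its Muller glia marker sum was above both (1120 against 715 and 681 CPM), but most of that sum was Clu (938 against 327 and 304 CPM). Only 3 of the 11 Muller glia markers lay above both other controls. Their median difference from the mean of the other controls was -0.93 in log2(CPM + 0.5), so most of these markers were lower in control replicate 3. Low sums also occurred with the Nr2e3 guide, at 61.5 CPM of amacrine and 133 CPM of bipolar cell markers in guide replicate 2. Pigment epithelium markers summed to 1.83 to 4.06 CPM in guide libraries. The 13 markers of infiltrating leukocytes summed to 0.889 to 3.21 CPM in all 6 libraries, with Cd3d at 0 counts in each. The list's median, and the fold changes of the members described library by library, are therefore also given without control replicate 3. The part of these other cells in the members' values was not tested. In sorted bulk RNA, fewer cells of a type and less RNA per cell cannot be told apart.

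No change in any of these genes was detected between the guides. Of the 35 members, 30 had enough counts in enough libraries to be tested. In the quasi-likelihood test of edgeR, adjusted by Benjamini-Hochberg over the 17138 genes tested, 0 members rose or fell, where 0.344% of genes were called. Each tested member had an adjusted p of at least 0.995, and 0 of the 30 had an unadjusted p under 0.05, against 5.69% of all genes tested. DESeq2 (1.58% of genes called) and limma-voom (0.327%) also called 0 members, though DESeq2 gave no p-value for Bst2. The members' log2 fold changes ran from -1.34 for Bst2 to 1.02 for Oas1a, 14 above and 16 below 0, with a median of -0.05 beside -0.01 for all genes tested. Guide and control libraries overlapped for all 35 members, while 12.1% of all genes tested had groups that did not overlap.

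The precision differed widely between members. The median standard error (SE) of their log2 fold change was 0.71, against 0.36 over all genes tested. For 3 members, Irf7, Psmb10 and Tapbp, the 95% interval lay within a 2-fold change in either direction, and for 14 it lay within a 4-fold change. For the other 16 a change of 4-fold or more in at least one direction lies inside the interval, so a modest induction of these was not detectable here. The p-values set the group difference against the spread between 3 animals per group, which in the guide group includes both sexes.

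**Figure D1:**
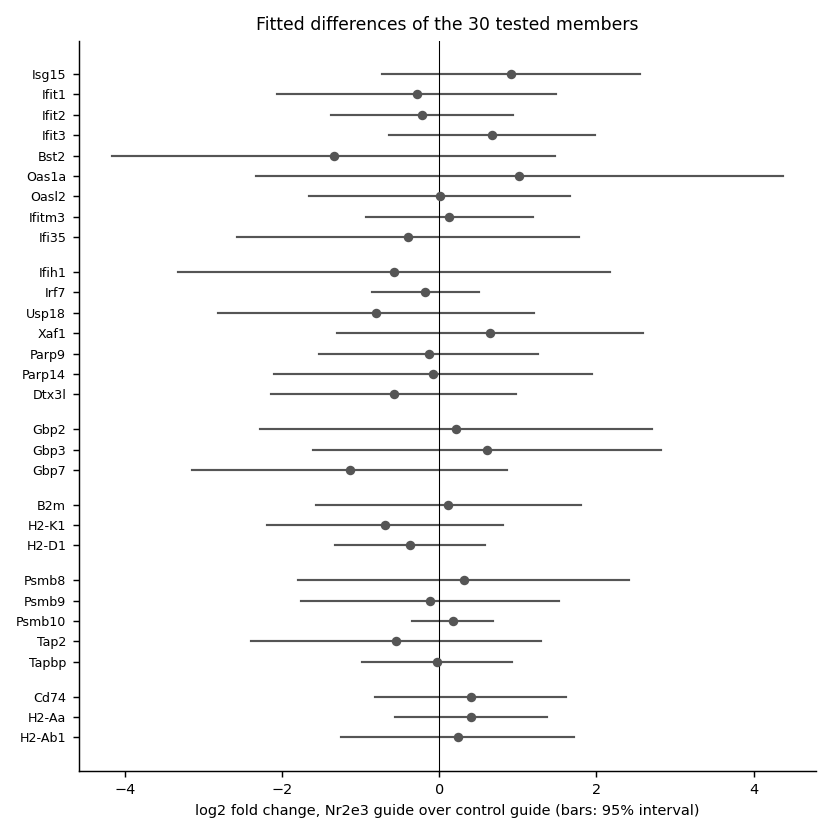
Log2 fold change of guide over control libraries for each of the 30 tested members, grouped by role, with 95% intervals from the edgeR fit. All 30 member intervals cross 0 and run from narrow for Psmb10 to wide for Oas1a.

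Most members were scarce. Averaged over the 6 libraries, 15 of the 35 were under 1 CPM, 13 between 1 and 10 CPM, and 7 at 10 CPM or more. Per length of exon, Tapbp stood highest at 21.2 CPM per kb, followed by Cd74 (19.9), B2m (17.02), H2-D1 (10.2), Bst2 (9.04), Irf7 (7.70), Psmb10 (7.65) and H2-K1 (7.43). The libraries' values of each of these overlapped those of its neighbour in the order. Genes often used as readouts of an interferon response were spread over the order. Bst2 and Irf7 ranked 5 and 6 of the 35, Isg15 ranked 14 at 0.670 CPM per kb and Ifit1 ranked 21 at 0.331. Mx2 at 0.0374, Mx1 at 0.0313 and Rsad2 at 0.0252 CPM per kb came last, at ranks 33 to 35.

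**Figure D2:**
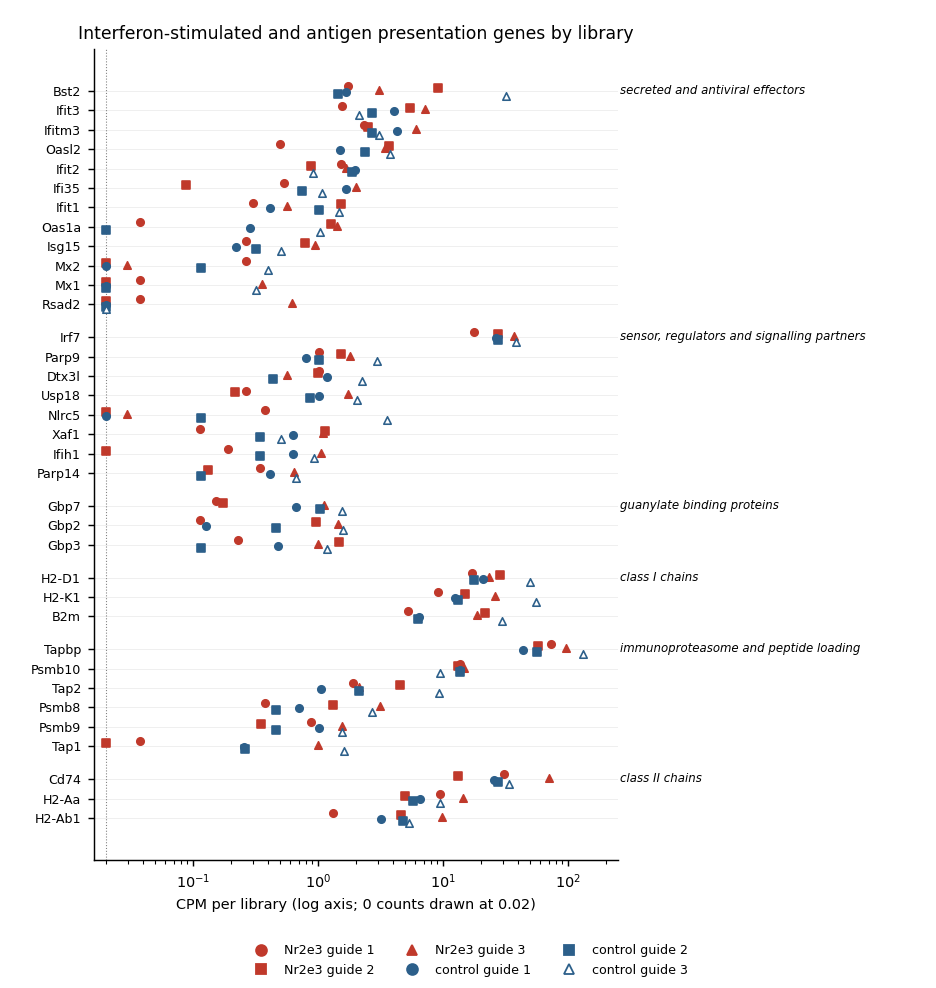
CPM of all 35 members in each of the 6 libraries on a log axis, grouped by role and ordered by mean, with red symbols for guide and blue for control libraries and an open triangle for control replicate 3 (0 counts are drawn at 0.02). The groups overlap in every row, and the open triangle lies to the right of the other blue symbols in 28 of the 35 rows.

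Promoters of 4 members are shown because they carry the recognition sequence of interferon-activated factors while their RNA stayed low (Isg15, Ifit1) or differed widely between control animals (Bst2, B2m). The core letters of the interferon-stimulated response element, GAAA followed by any 2 bases and another GAAA, were searched on both strands of RefSeq promoter windows (GRCm38.p6, 250 bases before to 50 after the start). They occurred in 12 of the 29 windows of the 26 members with an entry (41.4%) and in 3.44% of all 32851 windows. The gamma-activated site, TTCNNNGAA, occurred in 7 of the 29 (24.1%) and in 8.30% of all windows. The members were chosen as known interferon and antigen presentation genes, so these shares describe that choice and are not a result of the libraries. The 150 bases before the start follow, 5′ to 3′ on the gene's strand, with matches to that core or its reverse complement in capitals. Overlapping matches run together. They lie at chr4:156200819-156200968 (minus strand) for Isg15, chr19:34640739-34640888 (plus) for Ifit1, chr8:71537473-71537622 (minus) for Bst2 and chr2:122147537-122147686 (plus) for B2m.
Isg15: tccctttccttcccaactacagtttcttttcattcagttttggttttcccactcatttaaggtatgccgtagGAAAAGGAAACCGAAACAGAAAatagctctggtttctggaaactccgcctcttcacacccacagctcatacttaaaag
Ifit1: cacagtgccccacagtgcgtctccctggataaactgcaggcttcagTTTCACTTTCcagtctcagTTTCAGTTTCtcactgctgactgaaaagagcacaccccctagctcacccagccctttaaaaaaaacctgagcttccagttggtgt
Bst2: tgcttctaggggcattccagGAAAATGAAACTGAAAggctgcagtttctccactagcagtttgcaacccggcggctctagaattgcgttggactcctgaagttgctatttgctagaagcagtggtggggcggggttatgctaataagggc
B2m: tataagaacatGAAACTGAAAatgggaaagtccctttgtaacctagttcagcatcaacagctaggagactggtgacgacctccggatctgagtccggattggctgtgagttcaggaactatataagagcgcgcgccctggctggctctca
The search found 3 overlapping matches for Isg15, 2 for Ifit1, 2 overlapping ones for Bst2 and 1 for B2m. A match describes letters and not a site in use.

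Among the 12 antiviral effectors, 9 were tested and 0 passed, with log2 fold changes from -1.34 to 1.02. Isg15, a ubiquitin-like protein that is conjugated to targets during an interferon response, was counted 7, 18 and 32 times in guide replicates 1 to 3 and 7, 11 and 19 times in controls. These are 0.265, 0.783 and 0.942 CPM against 0.222, 0.317 and 0.508 CPM, and guide replicate 1 fell within the control range. Its log2 fold change was 0.92 (SE 0.70, 95% interval -0.72 to 2.56). Isg15 was chosen after its values were seen.

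Ifit3, of the family of proteins that bind foreign RNA, was at 1.55, 5.40 and 7.18 CPM in guide replicates 1 to 3. Control replicates 1 to 3 had 4.07, 2.68 and 2.14 CPM. The lowest and the 2 highest values were all in guide libraries, and the log2 fold change was 0.67 (SE 0.56, 95% interval -0.64 to 1.98). Ifit1 and Ifit2 of the same family stayed between 0.303 and 1.97 CPM. Ifitm3, a membrane protein that blocks viral entry, lay between 2.35 CPM in guide replicate 1 and 6.06 CPM in guide replicate 3.

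Bst2, or tetherin, holds budding virus at the cell surface. It was at 1.74, 9.10 and 3.06 CPM in guide replicates 1 to 3 and at 1.68, 1.44 and 31.9 CPM in control replicates 1 to 3. A single control library was thus 20.4-fold above the mean of the other 2, and the second highest value was in guide replicate 2. The log2 fold change of -1.34 (SE 1.21, 95% interval -4.16 to 1.48) turned to 1.56 (SE 0.72, edgeR adjusted p = 0.631) without control replicate 3. The microglia marker sums given above were highest in the same 2 libraries, control replicate 3 and guide replicate 2.

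The 2'-5' oligoadenylate synthetase Oas1a, which activates an RNA-degrading enzyme, was counted 1, 29 and 48 times in guide and 9, 0 and 39 times in control libraries. Its log2 fold change of 1.02 ran from 0.44 without control replicate 2 to 2.65 without control replicate 3. Its relative Oasl2 was at 0.493 to 3.70 CPM in guide libraries and 1.49 to 3.74 CPM in controls. Ifi35 lay between 0.0870 and 2.00 CPM over all 6. Rsad2 (viperin) and the dynamin-like GTPases Mx1 and Mx2 had too few counts to be tested. Rsad2 was counted 21 times in guide replicate 3, once in guide replicate 1 and 0 times in the other 4 libraries. Mx1 had 12 counts in each replicate 3 library, 1 in guide replicate 1 and 0 elsewhere, and Mx2 had 0 to 15 counts in each library.

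Of the 8 sensors, regulators and signalling partners, 7 were tested and 0 passed, with log2 fold changes of -0.80 to 0.65. Irf7, the transcription factor that amplifies interferon production, was the only one of the 8 above 10 CPM. It was at 17.6, 27.3 and 36.8 CPM in guide replicates 1 to 3 and at 26.4, 27.7 and 38.5 CPM in control replicates 1 to 3. The lowest value was in guide replicate 1 and the highest in control replicate 3, and the log2 fold change was -0.18 (SE 0.29, 95% interval -0.86 to 0.50). Exons of Irf7 overlap Phrf1 on the opposite strand, and without strand the reads of the 2 genes cannot be told apart there.

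Parp9 and Dtx3l, whose proteins form a complex that modifies histones and antiviral factors, lie head to head with overlapping exons. Parp9 was at 1.02, 1.52 and 1.80 CPM in guide libraries and 0.794, 1.01 and 2.97 CPM in controls, with the highest and the lowest value both among controls (log2 fold change -0.14, SE 0.60). Without control replicate 3, the highest library, the direction turned, to 0.68 (SE 0.54, edgeR adjusted p = 0.845). Dtx3l lay between 0.433 and 2.24 CPM, Usp18, which removes Isg15 from proteins, between 0.218 and 2.06 CPM, and Xaf1, an interferon-induced promoter of cell death, between 0.114 and 1.13 CPM. Ifih1, the cytoplasmic sensor of long double-stranded RNA also called MDA5, had 0 to 36 counts per library and Parp14 3 to 25.

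Nlrc5, the transactivator of class I genes, was not tested, because too few libraries held enough counts of it. It was counted 0, 4 and 134 times in control replicates 1 to 3 and 10, 0 and 1 times in guide replicates 1 to 3, so that 134 of its 149 counts came from control replicate 3. Its exons overlap the non-coding 9330175E14Rik on the opposite strand.

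The 3 guanylate binding proteins, GTPases that attack the compartments of intracellular pathogens, stayed under 2 CPM in every library. Gbp2 was at 0.114, 0.957 and 1.44 CPM with the Nr2e3 guide and at 0.127, 0.462 and 1.58 CPM in controls, with the highest value in control replicate 3 (log2 fold change 0.21, SE 1.07, and 1.49 with an SE of 1.16 without that library). Gbp7 was at 0.152, 0.174 and 1.12 CPM in guide libraries and 0.667, 1.04 and 1.55 CPM in controls. Guide replicate 3 lay within the control range and the other 2 guide libraries below it, and the log2 fold change was -1.14 (SE 0.86, 95% interval -3.15 to 0.87). Without guide replicate 3 it was -2.71 (SE 0.74, edgeR unadjusted p = 0.0099, adjusted p = 0.363). Gbp3 lay between 0.115 and 1.48 CPM.

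The class I chains varied more between animals than between guides. H2-K1, a heavy chain, was at 9.06, 15.1 and 25.9 CPM in guide replicates 1 to 3 and 12.4, 13.1 and 55.4 CPM in control replicates 1 to 3. H2-D1, the other classical heavy chain, was at 16.95, 28.3 and 23.3 CPM in guide libraries and 21.1, 17.8 and 49.99 CPM in controls. B2m, the light chain shared by all class I molecules and chosen after its values were seen, was at 5.27, 21.6 and 18.8 CPM in guide libraries and 6.48, 6.29 and 29.4 CPM in controls. For all 3 chains control replicate 3 was the highest library and guide replicate 1 the lowest.

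The log2 fold changes were -0.69 for H2-K1 (SE 0.65), -0.37 for H2-D1 (SE 0.41) and 0.12 for B2m (SE 0.72), each with an edgeR adjusted p of at least 0.995. Without control replicate 3 they were 0.39, 0.23 and 1.25 (adjusted p = 0.895, 0.902 and 0.617). The summed class I level was 54.8 ± 20.4 CPM in guide libraries and 70.6 ± 55.6 CPM in controls (SD, n = 3 each), and 38.5 CPM over control replicates 1 and 2. The heavy chain genes resemble other class I genes closely, so reads that align to several copies are missing from their counts to an unknown extent.

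**Figure D3:**
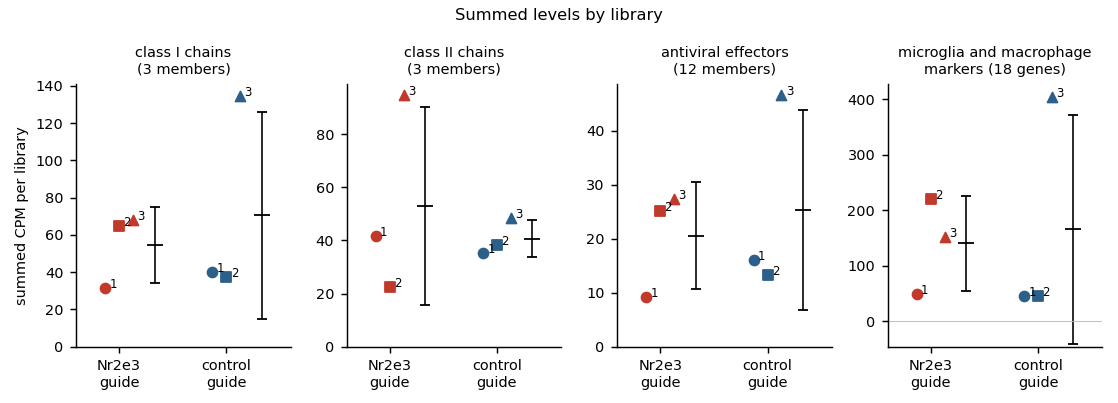
Summed CPM of the class I chains, class II chains, antiviral effectors and microglia and macrophage markers in each library, numbered by replicate, with the group mean and SD beside them. Class I chains and effectors are highest in control replicate 3, as is the marker sum of 404 CPM, while the class II sum is highest in guide replicate 3 at 94.7 CPM.

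The cutting and loading of peptides is shared between proteasome subunits and transporters. Psmb10, an inducible proteasome subunit, was at 13.6, 13.2 and 14.7 CPM in guide replicates 1 to 3 and 13.6, 13.7 and 9.51 CPM in control replicates 1 to 3, with 5 libraries close together and control replicate 3 below them. Its log2 fold change of 0.17 (95% interval -0.34 to 0.69) had the smallest SE of the 30 tested members, 0.22. Psmb8 and Psmb9, the other inducible subunits, were at 0.379 to 3.12 CPM and 0.348 to 1.56 CPM, with the highest values of both in the replicate 3 libraries of the 2 groups.

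Each inducible subunit can replace a constitutive one in the proteasome, and the pairs were compared per kb of exon. Exon length joins all annotated exons of a gene, 3381 bases for Psmb8 and 899 for Psmb5. It is 1705 bases for Psmb10 and 3421 for Psmb7, which widens the gap between these 2 pairs. The size of the percentages therefore depends on the annotation, while the comparison between libraries does not. Psmb8 stood at 1.59 ± 1.35% of Psmb5 in guide and 1.33 ± 1.48% in control libraries (SD, n = 3 each). Psmb9 stood at 0.143 ± 0.102% of Psmb6 and 0.159 ± 0.117%. Psmb10 stood higher, at 26.6 ± 4.55% of Psmb7 in guide and 25.1 ± 2.24% in control libraries. In all 3 pairs the group means differed by less than 1 SD.

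**Figure D4:**
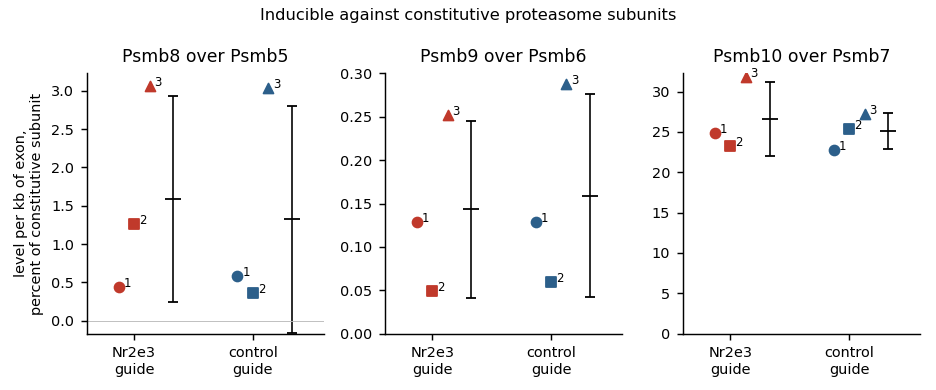
Level per kb of exon of each inducible proteasome subunit as a percentage of its constitutive counterpart, by library, with mean and SD. Psmb10 reaches 22.7 to 31.8% of Psmb7, whereas Psmb8 and Psmb9 stay at 3.07% and 0.288% or less, highest in the replicate 3 libraries of both groups. The size of the gap between pairs depends on annotated exon length.

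Tapbp (tapasin), which holds empty class I molecules at the peptide transporter, was at 73.7, 58.0 and 96.7 CPM in guide replicates 1 to 3. Control replicates 1 to 3 had 43.8, 56.3 and 133 CPM, so the control values enclosed the guide values. The log2 fold change was -0.03 (SE 0.41). Without control replicate 3 it was 0.60 (SE 0.24, unadjusted p = 0.0402, edgeR adjusted p = 0.544). Exons of Tapbp overlap Zbtb22 on the same strand and Gm19412 on the other. Tap2, a subunit of the peptide transporter, lay between 1.05 and 9.27 CPM, highest in control replicate 3, and its partner Tap1, not tested, was counted 60 times there, 34 times in guide replicate 3 and 0 to 9 times in the other 4 libraries. Exons of Tap1 overlap those of Psmb9 on the opposite strand.

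The class II genes followed another order of libraries. Cd74, the invariant chain that guides class II molecules, was at 30.6, 13.1 and 70.5 CPM in guide replicates 1 to 3 and 25.4, 27.7 and 33.6 CPM in control replicates 1 to 3. H2-Aa, a class II alpha chain, was at 9.52, 4.92 and 14.5 CPM in guide libraries and 6.54, 5.74 and 9.54 CPM in controls. For both, guide replicate 3 was highest and guide replicate 2 lowest, and the controls lay between them. H2-Ab1, the beta chain, ranged from 1.33 CPM in guide replicate 1 to 9.74 CPM in guide replicate 3.

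Log2 fold changes were 0.40 for Cd74 (SE 0.52), 0.41 for H2-Aa (SE 0.41) and 0.23 for H2-Ab1 (SE 0.64). Without guide replicate 3 all 3 turned below 0, to -0.41, -0.01 and -0.59 (edgeR adjusted p of 0.788, 0.996 and 0.811). The summed class II level was 52.9 ± 37.4 CPM in guide libraries and 40.6 ± 6.96 CPM in controls (SD, n = 3 each). Its highest library, guide replicate 3, held 151 CPM of microglia and macrophage markers, and guide replicate 2, with 219 CPM of these markers, had the lowest class II sum, 22.6 CPM.

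Across the controls, replicate 3 lay above both other libraries for 28 of the 35 members, or 24 of the 30 tested (80.0%), where 42.4% of all genes tested did so. The median difference of control replicate 3 from the mean of the others was 0.75 on the log2(CPM + 0.5) scale for the 35 members and 0.00369 for all genes tested. Bst2 differed most, by 3.98, and Ifit2, Ifit3 and Psmb10 went the other way, at -0.78, -0.53 and -0.50. In the guide group, replicate 1 was the lowest library for 19 of the 35 members, all 19 among the 30 tested, where it was lowest for 29.8% of all genes tested. Of the 18 microglia and macrophage markers, 15 were likewise lowest in guide replicate 1 within its group.

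**Figure D5:**
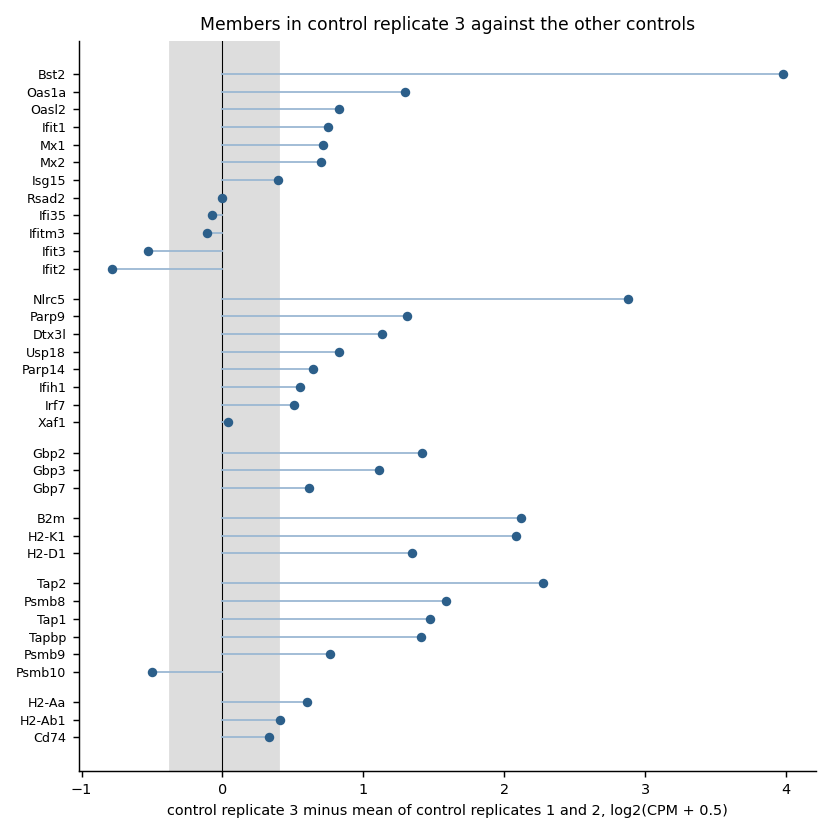
Difference of control replicate 3 from the mean of control replicates 1 and 2 for each of the 35 members, in log2(CPM + 0.5), with the middle 50% of all genes tested in grey. Points to the right are higher in control replicate 3, with Bst2, Nlrc5, Tap2, B2m and H2-K1 farthest, and Ifit2, Ifit3 and Psmb10 lie to the left of the grey band.

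Leaving out control replicate 3 moved the list, which had no clear direction with all 6 libraries, towards higher values in guide libraries but made no call. That library lay above both other controls for most members, so a move in this direction follows from leaving it out. Of the 30 members tested without it, 25 had a positive and 5 a negative log2 fold change, with a median of 0.44, 0 passed the edgeR test and 1, Tapbp, had an unadjusted p under 0.05. Leaving out guide replicate 3 moved the median the other way, to -0.41, again with 0 called. With sex as a term in the fit the median was -1.13, with 27 of the 30 members negative and 0 called. That fit sets guide replicate 1, the only male of its group, against the male controls. The sign of the list's median thus depended on single libraries.

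Of the other members described library by library, Isg15 had a log2 fold change of 1.28 without control replicate 3, Ifit3 0.48, Irf7 0.01, Gbp7 -0.80 and Psmb10 0.01. The class II genes Cd74, H2-Aa and H2-Ab1 were at 0.51, 0.65 and 0.38 without it. Leaving out any 1 of the other 5 libraries kept H2-K1 between -1.16 and -0.39, H2-D1 between -0.63 and -0.20 and Bst2 between -2.28 and -0.95, while B2m ran from -0.23 to 0.52, Tapbp from -0.31 to 0.13 and Irf7 from -0.46 to 0.06.

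Upstream of these genes, 10 interferon genes, Ifnb1, Ifng and members of the alpha, lambda, kappa and epsilon families among them, had 0 counts in all 6 libraries, which allows up to 0.131 CPM in the shallowest one. Alpha interferon genes are near copies of each other, so reads that align to several of them would not be counted. Of the 18 receptors, kinases and transcription factors of interferon signalling reported here, 16 were tested, 0 passed the edgeR test and 0 had an unadjusted p under 0.05, with a median log2 fold change of -0.20. The most abundant were Jak1, a kinase bound to interferon receptors, and Ifngr1, a chain of the gamma interferon receptor. Jak1 was at 81.5, 76.9 and 67.0 CPM with the Nr2e3 guide and 79.96, 72.6 and 66.4 CPM in controls, nearly the same range (log2 fold change 0.04, SE 0.14, 95% interval -0.29 to 0.38). Ifngr1 was at 45.1, 46.3 and 43.9 CPM with the Nr2e3 guide and 43.1, 40.3 and 64.7 CPM in controls, with control replicate 3 the highest (log2 fold change -0.13, SE 0.20). Ifnar1, a chain of the receptor for alpha and beta interferons and chosen after its values were seen, was at 47.2 ± 6.10 against 41.5 ± 4.67 CPM (SD, n = 3 each).

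Of the 43 further interferon-stimulated genes reported here, 26 were tested, 0 passed and 0 had an unadjusted p under 0.05, with a median log2 fold change of -0.24. The most abundant were Trim25, a ubiquitin ligase of RNA sensing, at 12.9 ± 2.53 against 14.6 ± 4.18 CPM and the large antiviral protein Rnf213 at 6.41 ± 0.392 against 7.86 ± 1.54 CPM. Among 18 nucleic acid sensing genes, 13 were tested and 0 passed (1 with an unadjusted p under 0.05, Ddx58), with log2 fold changes of -0.14 (SE 0.15) for Adar, an RNA-editing enzyme, and -0.38 (SE 0.30) for Mavs, the adaptor of the RNA sensors. Of 26 further antigen presentation genes, 24 were tested and 0 passed (2 with an unadjusted p under 0.05). The most abundant were Lgmn, a lysosomal protease, at 453 ± 45.1 against 334 ± 52.3 CPM and the chaperone Canx at 438 ± 109 against 337 ± 12.3 CPM. All 6 constitutive proteasome genes were tested and 0 passed, with Psmb6 at 341 ± 21.7 against 358 ± 71.4 CPM and Psma7 at 282 ± 41.1 against 268 ± 52.3 CPM.

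Groups did not overlap for 4 of the 85 tested genes reported here from these lists (4.71%), below the 12.1% of all genes tested. They were Lgmn (log2 fold change 0.44, SE 0.16, edgeR adjusted p = 0.709), Ddx58, the RNA sensor RIG-I, at 3.89 ± 1.36 against 1.64 ± 0.826 CPM (1.25, SE 0.48, adjusted p = 0.779), Rfx5, a factor at class I and class II promoters, at 8.59 ± 1.37 against 4.41 ± 0.951 CPM (0.96, SE 0.28, adjusted p = 0.508), and Rtp4 (0.86, SE 0.45, adjusted p = 0.959). Each had higher values in guide libraries, and 0 of the 4 passed. Ddx58, Rfx5 and Rtp4 were chosen after their values were seen.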

How the data were processed

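The deposited values are raw counts of reads per gene symbol, 1 table per library. The submitters' processing notes name STAR 2.7.3a and HTSeq 0.12.4, besides cutadapt and DESeq2 1.42.0, and the build GRCm38 (mm10). For annotation and strand setting nothing is given in the sources used here, and the SMARTer Ultra Low kit named in the labels' protocols does not mark strand. The 5 entries that name no gene (21.6 to 23.7% of all counts) were left out.

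The 2 guides were contrasted in R 4.3.3 by edgeR 4.0.16 (TMM factors, filterByExpr with min.count 10, glmQLFit, glmQLFTest, group as the only term, Benjamini-Hochberg adjusted p under 0.05). The same code was also run on simulated counts built from that fit. SE was taken as the absolute log2 fold change over the root of the F statistic. CPM use TMM-normalised library sizes. Alternatives were DESeq2 1.42.0, limma-voom (limma 3.58.1), other scalings, no filter, the replicate number or sex as a term, and leaving libraries out. Members and lists were chosen with earlier results of these data known. Values in every library are given for members called, for members with a mean of at least 1 CPM and groups that do not overlap, and for the 2 most abundant of each role. In each pathway list the called genes, or else the 2 most abundant, are given. Other genes were chosen after their values were seen. Some results on genes of the pathway lists are not reported here. Exon lengths and overlaps come from GENCODE M21 (GRCm38), positions and promoters from RefSeq GRCm38.p6. No pair of libraries within a group was close enough in a chi-square comparison to be 1 library deposited in duplicate.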

Additional observations from a re-analysis of the deposited data

How the results depend on the processing

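Under each of the 15 alternative settings 0 members were called, and the lowest adjusted p of any member was 0.288, for Gbp7 with both replicate 3 libraries left out. The members' median log2 fold change of -0.05 moved to -1.13 with sex as a term, a fit that sets the 1 male guide library against the controls, which are male. It ran from -0.41 to 0.44 over fits that left out 1 library. Of all genes, 59 were called in the fit as reported, 271 by DESeq2, 155 without a count filter, 6 with sex as a term and 14 to 89 with 1 library left out. The replicate number pairs no animals, and deviations of same-numbered libraries correlated at 0.14, -0.14 and 0.04, so the fit with the replicate number as a block, which called 32 genes and 0 members, is given for completeness. With depth of this order, members under 1 CPM rest on few reads per library, and only changes of several fold could be seen in them.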
